A study of Psammomys obesus with 8 samples.

Results

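A family of tandem repeats with a unit of about 37 bases was described in the captured, methylated DNA of sand rat hypothalamus. A contig is a stretch of sequence assembled from reads. It was taken into the family when its sequence, laid over itself at a shift of 1 to 60 bases, matched best at a shift of 35 to 38 bases and at least 50% of its bases then equalled the base one shift away. The rule used the sequence alone and no count. It found 3848 of the 548060 contigs of the table, or 0.702%, and 4491 further contigs were tandem repeats of another period.

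Hypothalamus was taken at 16 weeks of age from male sand rats (*Psammomys obesus*), desert rodents that become obese and diabetic on energy-rich food. The 8 libraries comprised 4 from Standard-Low animals, whose diet the labels give as standard lipid, and 4 from Low-Low animals, whose diet they give as low lipid. The series asked whether methylation differed in offspring of fathers on different diets, and the labels do not say which part of a group's name stands for the father's diet. Methylated fragments were pulled down with the MethylMiner kit, whose bait is the part of the protein MBD2 that binds methylated CpG, and were then sequenced. Totals over the contigs ran from 11646180 to 12156525 counts in Standard-Low libraries and from 12528388 to 13533441 in Low-Low libraries. The median contig of the family had a mean of 17.5 counts per library, so single contigs carry wide counting error. No unenriched DNA was used here, so more methylation of a repeat and more copies of it in the genome cannot be told apart. Nothing in the labels ties each library to its own animal or father, so the p-values reflect the variation among these 8 libraries, part of which may be technical.

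Tandem satellites are long arrays of a short unit copied head to tail, and in mammals they form the centromeres and much of the surrounding heterochromatin. Their CpG sites are usually heavily methylated in somatic tissue, which is what a methyl-CpG capture enriches. Centromere protein B (CENP-B) binds a short motif, the CENP-B box, that lies in human alpha satellite and mouse minor satellite and holds a pair of CpG sites.

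The copy that the contigs share was built from the aligned members, and it is shown first because the rest of the description refers to its positions. It has 37 bases and 2 CpG sites, at positions 4 to 5 and 13 to 14. The capitals mark the 17 bases that match the core of the CENP-B box, which was searched on both strands as TTCG, 4 free bases, A, 2 free bases and CGGG, with 1 free base at each end. All sequences are printed in the orientation of the consensus copy, so those stored on the opposite strand in the table are turned round.
consensus copy: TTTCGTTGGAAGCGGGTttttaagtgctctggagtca
The contig with most counts, the 3 called higher with the smallest p, the one called lower with the smallest p, and one nearly absent from 2 Low-Low libraries follow, with capitals for the same motif.
contig 1472923: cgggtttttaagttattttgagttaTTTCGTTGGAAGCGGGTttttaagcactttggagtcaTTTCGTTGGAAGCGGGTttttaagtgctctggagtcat
contig 3209397: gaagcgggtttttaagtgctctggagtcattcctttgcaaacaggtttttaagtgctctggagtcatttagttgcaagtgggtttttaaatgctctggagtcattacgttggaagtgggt
contig 2716599: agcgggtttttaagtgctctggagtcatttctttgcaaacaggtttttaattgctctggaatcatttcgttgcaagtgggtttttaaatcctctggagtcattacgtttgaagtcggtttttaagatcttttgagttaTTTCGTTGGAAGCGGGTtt
contig 1421832: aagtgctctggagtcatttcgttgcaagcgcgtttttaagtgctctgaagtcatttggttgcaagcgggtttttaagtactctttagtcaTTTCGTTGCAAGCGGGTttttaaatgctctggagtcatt
contig 3701970: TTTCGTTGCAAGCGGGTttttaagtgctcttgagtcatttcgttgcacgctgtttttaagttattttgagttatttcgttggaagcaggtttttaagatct
contig 460818: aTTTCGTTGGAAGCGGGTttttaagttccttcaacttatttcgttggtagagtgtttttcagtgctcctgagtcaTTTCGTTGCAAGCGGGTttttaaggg
Contig 1472923 holds the motif in 2 of its copies, and contig 3209397 in none. The sand rat contigs have no genome position in the table, so none is given for them.

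Members were short. The median length was 101 bases (quartiles 101 and 108, range 100 to 1859), which holds 2.73 copies of the unit. In all, 2622 members (68.1%) were 100 or 101 bases long, and they made up 38.9% of the 6749 contigs of that length in the table. Only 250 members held 4 or more copies and 109 reached 200 bases. The best shift was 37 bases in 3125 members, 36 in 560, 38 in 91 and 35 in 72.

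Members were close to the consensus, with a median identity of 88.0% (quartiles 85.1% and 90.1%). The 124 members below 70% identity repeat at the right period without resembling the copy, and the other 3724 did resemble it. Near the edge of the rule, 111 members had a self-match of 50% to 55%, and 78 of them reached 70% identity. Just outside it, 12 of 118 contigs with a self-match of 45% to 50% did so, as did 14 of 147 contigs with a best shift of 33, 34, 39 or 40 bases. Long exact words were mostly not shared: a median of 9.72% of a member's 41-base words occurred in another member, the highest share was 40.98%, and 780 members shared none. Alike contigs with scattered mismatches can share no such word.

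The longest member, contig 4227858, shows how neighbouring copies differ within one array. Its 1859 bases held 50 full copies, of which 42 were 37 bases long and 49 were distinct. The motif lay in 9 of them, and 13 had no CpG. Its first 6 copies, in their order in the array, are given with the motif in capitals.
contig 4227858 copy 1: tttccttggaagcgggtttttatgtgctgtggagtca
contig 4227858 copy 2: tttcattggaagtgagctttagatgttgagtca
contig 4227858 copy 3: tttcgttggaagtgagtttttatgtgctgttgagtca
contig 4227858 copy 4: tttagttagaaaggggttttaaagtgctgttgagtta
contig 4227858 copy 5: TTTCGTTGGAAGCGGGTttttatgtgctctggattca
contig 4227858 copy 6: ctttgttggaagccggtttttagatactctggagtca
Among these 6 copies the fifth holds the motif and both CpG sites, and the second and the fourth hold no CpG.

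The family was rich in CpG and poor in G and C. Its median was 3.96 CpG per 100 bases, against 1.85 in other tandem repeats and 2.16 in the whole table. The median G and C content was 38.8% in the family, 46.3% in other tandem repeats and 48.4% in the table. CpG stood at 1.29 times the number expected from base composition in the family, against 0.471 in other tandem repeats and 0.383 in the table. A member held a median of 4 CpG sites, 3356 members (87.2%) held 3 to 6, and 5 held none.

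Of the 17148 CpG sites in aligned members, 15990 (93.2%) lay at the 2 sites of the consensus copy. CG stood at the first site in 69.2% of 11492 copies, CA in 8.12%, CT in 8.02% and TG in 7.87%. CG stood at the second site in 70.4% of 11206 copies, CA in 10.8% and TG in 8.46%. The site was thus intact in about the same share of copies at both places. Of the 37 positions, 24 kept the consensus base in at least 90% of copies, and none of the 4 CpG positions was among them.

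**Figure D1:**
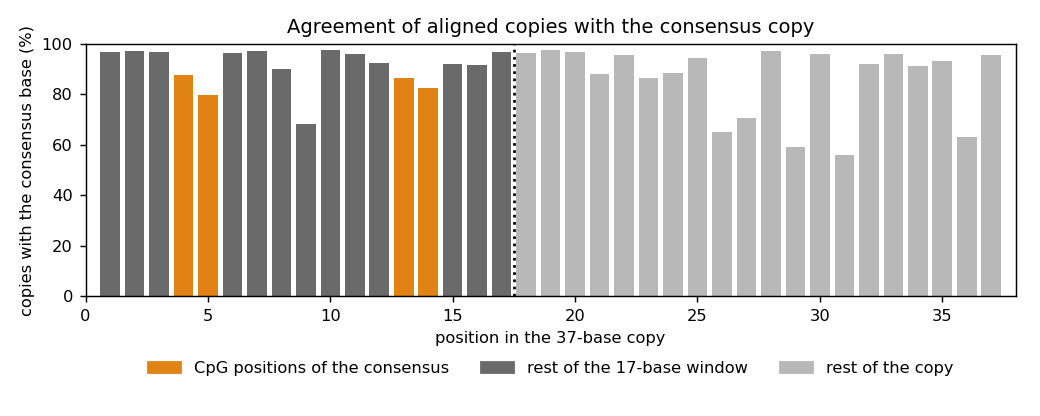
Percent of aligned copies with the consensus base (vertical axis) at each of the 37 positions of the copy (horizontal axis), with CpG positions in orange, the rest of the 17-base window in dark grey and the rest of the copy in light grey. Position 5 stands at 79.6%, and positions 29, 31 and 36 are the lowest of the right-hand part together with position 26, at 59.0%, 55.9%, 63.2% and 65.0%.

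The CENP-B box core was common in the family and rare elsewhere. It occurred in 2605 members (67.7%), in 11 other tandem repeats (0.245%) and in 3180 contigs of the table (0.580%), the family included. Among copies that cover the 17 bases, 3500 of 9260 (37.8%) held it. The complete CENP-B box occurred in 19 members and in 30 contigs of the table. A match describes the sequence and does not show that the protein binds there.

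Copies fell into 2 common forms at positions 29, 31 and 36, a division chosen after the copies were seen. The form with the consensus base at all 3 positions made up 4781 of 10522 copies (45.4%), and the form with the second most frequent base at all 3 made up 2973 (28.3%). In 44.6% of 3406 pairs of neighbouring copies with a form each, the 2 copies were of unlike form. Both forms occurred in 1603 members, the first alone in 1387 and the second alone in 612.

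The family as a whole did not differ between the diets by more than the spread between libraries. Its summed CPM, the counts scaled to a common library total, were 6030, 8244, 7895 and 8104 in Standard-Low libraries 1 to 4, against 5846, 7645, 7779 and 8031 in Low-Low libraries 1 to 4. Library 1 was the lowest of its group in both, and the 2 groups overlapped. The means were 7568 ± 1036 CPM in Standard-Low and 7326 ± 999 CPM in Low-Low (SD, n = 4 each), a ratio of 1.03, with no test because the sum is a score over members. The ratio was 0.968 without Low-Low 1 and 1.10 without Standard-Low 1, and 1.03 without both.

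Libraries numbered 1 held less of the family than the others. The sum in library 1 was 0.746 times the mean of libraries 2 to 4 in Standard-Low and 0.748 times in Low-Low. Library 1 lay below that mean for 79.1% of members in Standard-Low and for 79.0% in Low-Low, against 51.5% and 51.4% of all contigs. Other tandem repeats did not share this: they summed to 7311, 6531, 6306 and 7583 CPM in Standard-Low and to 8244, 6892, 6907 and 6758 CPM in Low-Low. The labels give no batch or date for these libraries, and the cause was not tested.

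**Figure D2:**
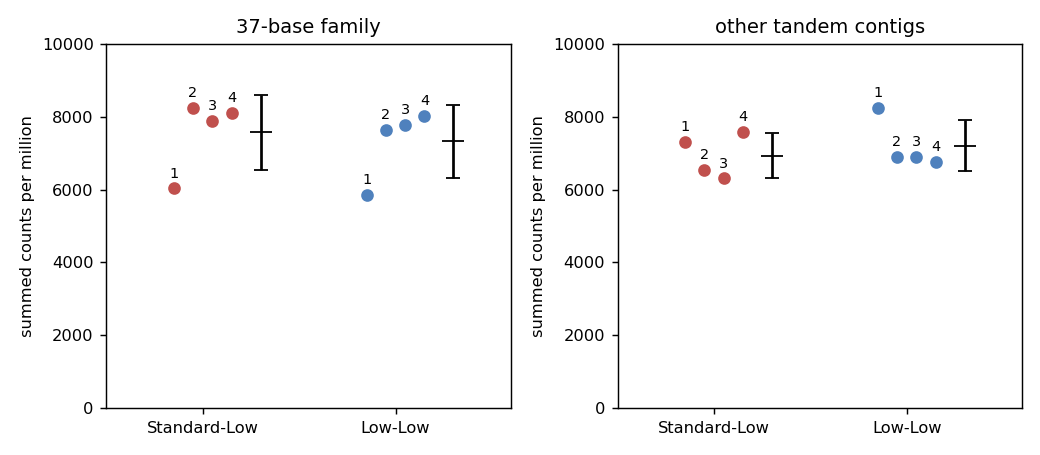
Summed CPM per library (vertical axis) of the 37-base family (left panel) and of other tandem repeats (right panel), with Standard-Low in red and Low-Low in blue, library numbers over the points, and black marks for the mean and SD of 4 libraries. In the left panel library 1 stands lowest in both groups, at 6030 and 5846 CPM, and in the right panel it does not.

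The sums of different kinds of member gave much the same picture. Members with the CENP-B box core supplied 70.6% ± 1.01 of the family's CPM in Standard-Low and 70.3% ± 0.816 in Low-Low (SD, n = 4 each). The ratio of group means was 1.04 for members with the first form alone, 1.01 for those with the second alone and 1.05 for those with both. Among members of 100 or 101 bases, the median CPM lay between 1.40 and 1.47 in every class of CpG number, with 177 members at 0 to 2 CpG and 32 at 7 or more. Across members, Spearman's rho was 0.03 between CpG density and mean CPM.

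Single members varied widely between libraries of 1 group. The SD of log2(CPM + 0.1) within a group had a median of 0.436 in the family, 0.427 in other tandem repeats and 0.349 in the whole table. The low family sums of libraries 1 enter this spread. The family's median was 0.392 without Low-Low 1 and 0.403 without Standard-Low 1. Without any other single library it lay between 0.4345 and 0.4446. Counting error alone sets a floor that depends on abundance, so the variance within groups was also divided by that expected from counting. This ratio had a median of 1.83 in the family, 1.58 in other tandem repeats and 1.23 in the table. It passed 3 in 968 members (25.2%), in 15.1% of other tandem repeats and in 4.98% of the table. Among contigs with a mean of 40 counts or more, it passed 3 in 50.7% of members and in 10.2% of other contigs. This ratio is given with libraries 1 included only, and their part in it was not tested. The highest library was at least 10 times the lowest in 230 members (5.98%), against 3.295% of other tandem repeats and 0.361% of the table.

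**Figure D3:**
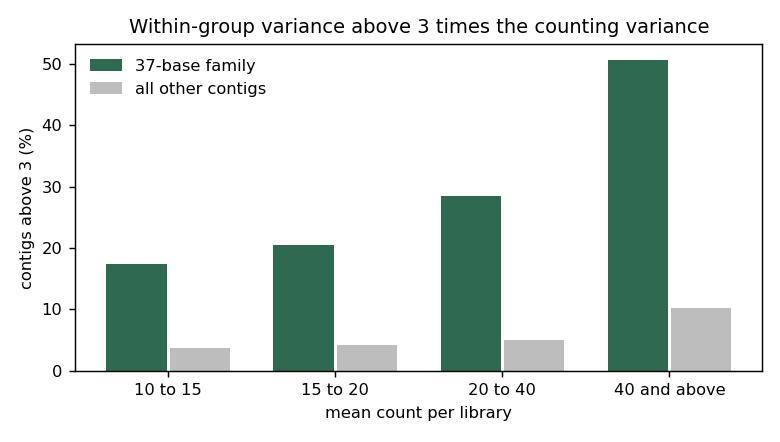
Percent of contigs whose variance within groups is over 3 times the counting variance (vertical axis), by mean count per library (horizontal axis), for the family in green and all other contigs in grey. The family stands above the other contigs in each of the 4 classes, at 17.4% against 3.64% in the lowest and 50.7% against 10.2% in the highest.

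Some members were nearly absent from particular libraries. At least 1 library held at most 1 count in 151 members (3.92%), against 95 other tandem repeats (2.115%) and 0.196% of the table. The members at or below 1 count numbered 23, 2, 2 and 7 in Standard-Low libraries 1 to 4, and 19, 88, 75 and 23 in Low-Low libraries 1 to 4. Low-Low 2 and Low-Low 3 stood out. In 118 members the near-absence touched Low-Low libraries alone and in 26 Standard-Low libraries alone, while among contigs outside the family the numbers were 308 and 563.

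The most frequent pattern was shared by a pair of Low-Low libraries. Low-Low 2 and Low-Low 3 alone held at most 1 count for 46 members, against 15 contigs outside the family. In these 46 members the median counts were 9, 22, 27 and 22.5 in Standard-Low libraries 1 to 4, against 19.5, 0, 0 and 24 in Low-Low libraries 1 to 4. Contig 460818, singled out after its values were seen, had 29, 66, 66 and 57 counts in Standard-Low and 63, 1, 0 and 87 in Low-Low. The totals of Low-Low 2 and Low-Low 3 were 13533441 and 12528388 counts, the largest and the smallest of the Low-Low group, and the part of depth was not tested. Since these 46 members were picked by their low Low-Low counts, no test between the diets is given for them. A further 7 members held at most 1 count in all 4 Low-Low libraries, a pattern that no contig outside the family had, and no member held at most 1 count in more than 2 Standard-Low libraries. Every contig of the table had at least 81 counts in all, so these 7 are in it only through their Standard-Low counts. All 7 are among the members called higher in Standard-Low below, so they are not a separate result.

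**Figure D4:**
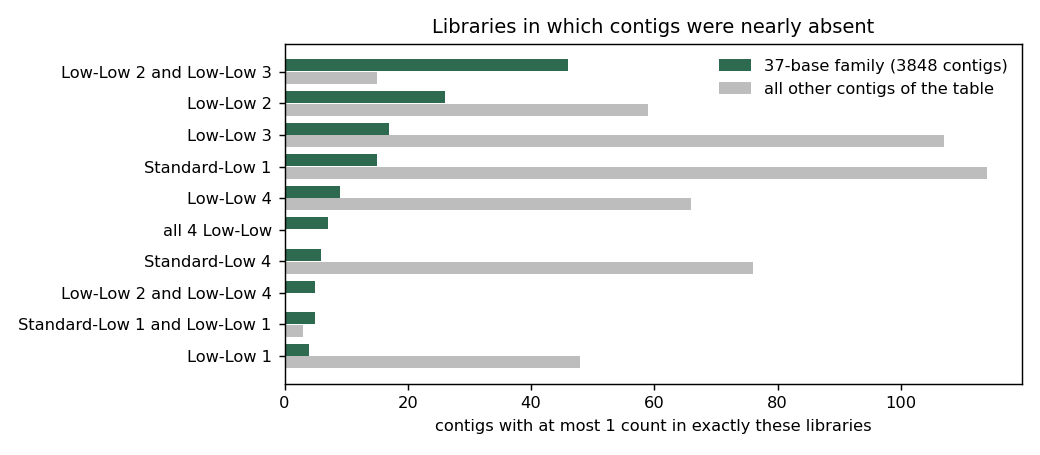
Number of contigs (horizontal axis) with at most 1 count in exactly the libraries named on the vertical axis, for the family in green and for all other contigs of the table in grey. The family has 46 contigs against 15 for the pair Low-Low 2 and Low-Low 3, and 7 against 0 for all 4 Low-Low libraries.

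In the main fit, made with edgeR, members were called between the diets more often than other contigs. The variance within groups passed 3 times the counting variance in 25.2% of members, against 4.98% of the table. The part of this spread in the calls was not tested. A contig was called when its adjusted p in edgeR's quasi-likelihood test, fitted and adjusted by Benjamini-Hochberg over all 548060 contigs, was under 0.05. In the family 57 of 3848 members were called (1.48%), where 0.0268% of the table was. Of these, 46 were higher in Standard-Low (1.20% of members, where 0.0203% of the table was) and 11 were lower (0.286%, where 0.00657% was). The count rested on the tool and on single libraries: it was 25 with DESeq2 and 16 with limma voom, 31 without Low-Low 2, 35 without Standard-Low 4, and 26 without Low-Low 2 and Low-Low 3 together. Those called lower numbered 25 without Low-Low 1. The share of the table called is given for the main fit alone, so these counts are not set against it. Other tandem repeats had 16 of 4491 called (0.356%), 7 higher and 9 lower. At an unadjusted p under 0.05 there were 476 members (12.4%), where 5.68% of the table was.

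The typical member did not lean to either diet. The median log2 fold change was 0.00 in the family (quartiles -0.20 and 0.22), and 49.9% of members had a positive one, against 50.28% of the table. The share of a contig's variance that lay between the groups had a median of 7.44% in the family. It was 8.93% in other tandem repeats and 8.62% in the table, so the typical member did not have a larger share between the diets. The groups did not overlap in 115 members (2.99%), where 3.24% of the table did not, so complete separation was about as frequent in the family as in the table. Standard-Low was the higher group in 71 of them, 1.85% of members where 1.63% of the table was, and the lower group in 44, 1.14% of members where 1.61% of the table was.

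The 46 members called higher in Standard-Low summed to 82.0, 167, 159 and 170 CPM in Standard-Low libraries 1 to 4, against 27.99, 23.7, 29.7 and 28.8 CPM in Low-Low libraries 1 to 4. These members were picked by the call on the same counts, so a gap between the groups follows from the choice. No effect over the family is read from it. Standard-Low 1 was the lowest Standard-Low library in 38 of the 46, with a median of 0.443 times the mean of the other 3. The fitted log2 fold changes ran from 0.94 to 7.61, with 12 members at 16-fold or more and 19 under 4-fold. The groups did not overlap in 38 of the 46, a share that the call itself raises. It is not set against the called contigs of the whole table. The CENP-B box core lay in 31 of the 46 (67.4%), close to the 67.7% of all members. Leaving out each library in turn, 29 of the 46 stayed called every time.

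Contig 3209397, of 120 bases, had the smallest p. Its 2 CpG sites and its lack of the motif can be read in the sequence above. It had 4.02, 10.9, 11.7 and 12.6 CPM in Standard-Low libraries 1 to 4, against 0.382, 0.223, 0.161 and 0 CPM in Low-Low libraries 1 to 4. The fitted log2 fold change was 5.60 ± 0.32 (SE; edgeR adjusted p = 2.54e-24). The call was lost with limma voom (adjusted p = 0.168) and in edgeR's robust fit (adjusted p = 0.192).

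Contig 2716599, of 157 bases and 6 CpG sites, had 3.94, 9.28, 8.62 and 10.1 CPM in Standard-Low. In Low-Low it had 0.306, 0, 0 and 0 CPM, all 4 counts coming from Low-Low 1. The call was lost with limma voom (adjusted p = 0.402).

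Contig 1421832, of 129 bases and 6 CpG sites, was called under all 17 other settings that were run. It had 4.54, 10.2, 12.4 and 9.30 CPM in Standard-Low, against 0.611, 1.04, 0.321 and 0.538 CPM in Low-Low. Its mean was 9.10 ± 3.299 CPM in Standard-Low and 0.628 ± 0.301 CPM in Low-Low (SD, n = 4 each), a 14.5-fold difference (edgeR adjusted p = 2.51e-21). Contigs 3724033, 717986 and 922988 were also called under all 17, at 9.17-fold, 5.998-fold and 8.66-fold higher. Contig 3724033 had 3.17, 5.99, 5.88 and 6.17 CPM in Standard-Low, against 0.382, 0.371, 0.562 and 0.998 CPM in Low-Low. Contig 717986 had 2.82, 5.65, 5.06 and 6.76 CPM in Standard-Low, against 0.458, 1.04, 0.963 and 0.922 CPM in Low-Low. Contig 922988 had 1.71, 5.48, 4.23 and 4.48 CPM in Standard-Low, against 0.153, 0.891, 0.562 and 0.230 CPM in Low-Low. In all 3, Standard-Low 1 was the lowest Standard-Low library and still lay above every Low-Low library.

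Contigs 589919, 725913, 147309 and 651015 rested on 1 or 2 counts in the whole Low-Low group. The ratio of counts was 132 for contig 725913, with a 95% counting interval of 23.2 to 5241, and 77.3 for contig 589919, with an interval of 21.01 to 645. These intervals cover counting error only. None of the 4 passed with limma voom, and all 4 passed with DESeq2. With 5 Low-Low counts, contig 1510805 was 27.1-fold higher, and with 10 contig 3997833 was 14.7-fold higher, and both calls were lost with limma voom (adjusted p = 0.858 and 0.260).

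**Figure D5:**
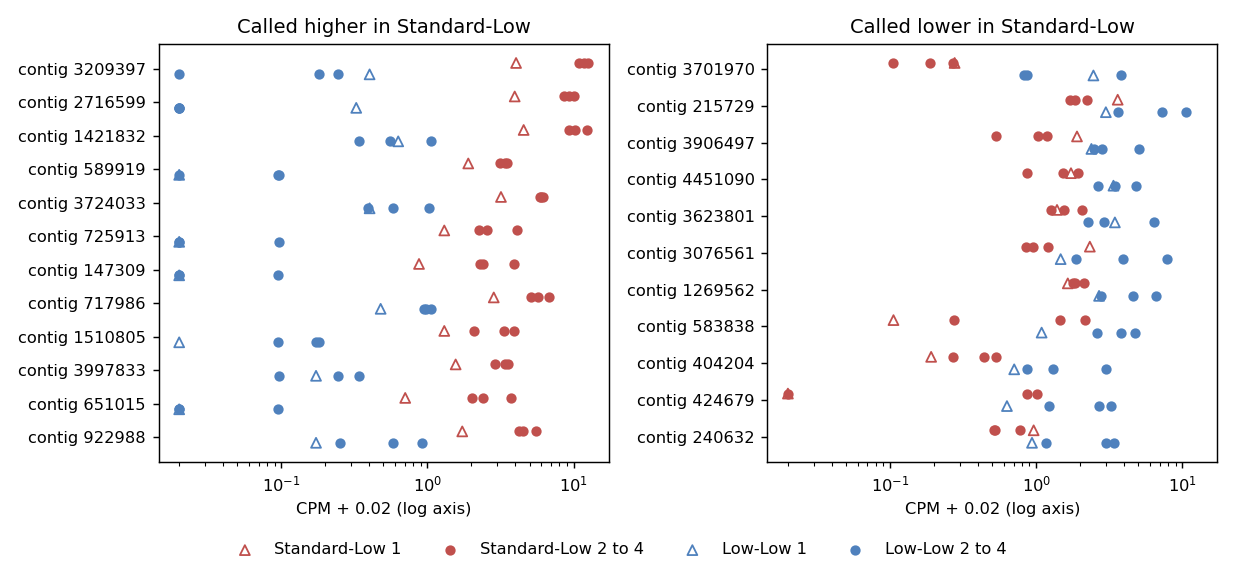
CPM + 0.02 on a log axis (horizontal) for the 12 members called higher in Standard-Low with the smallest p (left panel) and the 11 called lower (right panel), with Standard-Low in red above Low-Low in blue and open triangles for library 1. In the left panel all Standard-Low points lie right of all Low-Low points in each row, and in the right panel the groups overlap in 5 of the 11.

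The 11 members called lower in Standard-Low leaned on 1 library. They summed to 14, 13.04, 12.8 and 9.52 CPM in Standard-Low libraries 1 to 4, against 21.97, 57.2, 33.9 and 26.2 CPM in Low-Low libraries 1 to 4. As these members were also picked by the call, a gap between the groups follows from that choice. Low-Low 2 was the highest Low-Low library in 8 of the 11, and without it 1 of the 11 stayed called. The log2 fold changes ran from -3.32 to -1.17, and 7 of the 11 held the CENP-B box core. With DESeq2 0 members were called lower, and 83 of 3848 were lower at an unadjusted p under 0.05. The 83 are not set against the share of all contigs under DESeq2, so no excess is read from them.

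Contig 3701970 was the member that remained called lower without Low-Low 2, and without each other library. It had 0.257, 0.0844, 0.249 and 0.169 CPM in Standard-Low, against 2.44, 3.79, 0.803 and 0.845 CPM in Low-Low. The mean was 0.190 ± 0.0806 CPM in Standard-Low and 1.97 ± 1.43 CPM in Low-Low (SD, n = 4 each), with a log2 fold change of -3.32 ± 0.45 (SE; edgeR adjusted p = 2.52e-06). The call was lost with DESeq2 (adjusted p = 0.206) and with limma voom (adjusted p = 0.891). Contig 215729 had 3.59, 1.69, 1.82 and 2.20 CPM in Standard-Low, against 2.98, 10.6, 7.23 and 3.61 CPM in Low-Low, and its groups overlapped. Contig 4451090 had 1.71, 1.52, 1.91 and 0.845 CPM in Standard-Low, against 3.36, 4.83, 3.45 and 2.61 CPM in Low-Low, and its groups did not.

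Of the other 8 members called lower, 5 were highest in Low-Low 2 among the Low-Low libraries, contigs 583838 and 424679 in Low-Low 4 and contig 240632 in Low-Low 3. Contig 3906497 had 1.88, 1.01, 1.16 and 0.507 CPM in Standard-Low, against 2.37, 5.05, 2.81 and 2.46 CPM in Low-Low. Contig 3076561 had 2.31, 1.18, 0.8288 and 0.929 CPM in Standard-Low, against 1.45, 7.88, 3.93 and 1.84 CPM in Low-Low, and its edgeR adjusted p was 0.995 in the least favourable of the fits that left out 1 library. Contig 583838 had 0.0856, 1.43, 2.15 and 0.254 CPM in Standard-Low, against 1.07, 3.79, 2.57 and 4.76 CPM in Low-Low. Contig 424679 had 0, 0.844, 0.995 and 0 CPM in Standard-Low, against 0.611, 2.67, 1.20 and 3.22 CPM in Low-Low. In these 2, Standard-Low 1 and Standard-Low 4 were the low ones of their group, and the groups overlapped. The remaining contigs 3623801, 1269562, 404204 and 240632 were 2.43-fold, 2.26-fold, 4.29-fold and 3.11-fold lower, and the highest edgeR adjusted p with 1 library left out was 0.977, for contig 404204.

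Called members seldom shared a long exact word, which does not show how alike they are when mismatches are scattered. Of the 57, 14 shared a 41-base word with another called member, in 9 of 1596 pairs, and the members of 3 of these pairs moved in opposite directions. Reads from alike copies can be placed on either contig by the aligner, so counts of near-identical members are uncertain.

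The most abundant members showed no difference past the threshold. Contig 1472923 had 66.1, 111, 114 and 103 CPM in Standard-Low, against 56.2, 86.1, 81.4 and 97.4 CPM in Low-Low, and library 1 was again the lowest of each group. Its log2 fold change was 0.30 ± 0.12 (SE; edgeR adjusted p = 0.832). Contig 3954701 had 41.2, 51.5, 47.2 and 54.7 CPM in Standard-Low and 30.6, 42.1, 41.6 and 41.4 CPM in Low-Low. The other 6 of the 8 most abundant members, contigs 4028754, 1311686, 3266706, 2630342, 1638033 and 1916308, had fold changes from -0.08 to 0.12 on the log2 scale.

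The 3 longest members, which hold whole stretches of an array, were not called. Contig 4227858 had 6.67, 5.82, 5.72 and 7.69 CPM in Standard-Low, against 6.72, 7.50, 7.39 and 7.30 CPM in Low-Low (edgeR adjusted p = 0.9503). Contig 1550981, of 1363 bases, had means of 5.19 ± 0.979 CPM in Standard-Low and 4.74 ± 0.860 CPM in Low-Low (SD, n = 4 each). Contig 634625, of 1601 bases, had means of 3.42 ± 0.822 CPM in Standard-Low and 3.81 ± 0.346 CPM in Low-Low (SD, n = 4 each).

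The 124 members below 70% identity met the rule without resembling the repeat, and they stay in the family's summed CPM. The 6 members with a mouse match had at most 52.4% identity to the consensus copy. Contig 3829779 matched mouse chromosome 16 from 91655600 to 91656191 over 592 bases, inside Son, which encodes a nuclear speckle protein with repeated peptide units. No source used here gives the build of that match. It had means of 3.72 ± 1.13 CPM in Standard-Low and 3.599 ± 0.706 CPM in Low-Low (SD, n = 4 each). Contig 4168715 matched chromosome 4 from 109185125 to 109185298, inside Osbpl9, an oxysterol-binding protein gene. Of the members with 4 or more copies, the one with most CpG per 100 bases, contig 3013615, had 46.9% identity to the consensus, and the one with fewest, contig 774604, had 55.9% and no CpG. None of these was called.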

How the data were processed

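Methylated DNA of 8 hypothalamus libraries was captured with MethylMiner and sequenced, per the labels' protocols. The values are read counts per assembled contig, deposited by the authors as raw whole numbers. FastQC and BWA were used, per the submitters' processing notes. No source used here gives their versions, the assembler or the handling of reads that fit several contigs. The lowest summed count was 81, so low values were seen only where other libraries held counts. The header separates library names by spaces, and columns were matched to names in header order, on which every value per library rests. Groups and library numbers came from the labels.

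Family membership was computed from the contig sequences. Copies were aligned to a consensus copy by wraparound alignment. The test over all 548060 contigs used edgeR 4.0.16 (R 4.3.3; TMM factors, estimateDisp, glmQLFit, two-sided glmQLFTest, no filter on counts), with Benjamini-Hochberg adjustment at 0.05. CPM of single contigs used the library total times its TMM factor, and summed CPM only the library total. Errors of means are SDs of 4 libraries. Spread used log2(CPM + 0.1). The SE of a log2 fold change is its size divided by the square root of the F statistic. Alternatives were DESeq2 1.42.0, limma voom 3.58.1, other scalings and filters, a replicate block, other bounds of the family and each library left out.

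Named contigs were the 8 most abundant members, the 12 called higher and up to 12 called lower with the smallest p, the 3 longest, those of at least 4 copies with most and fewest CpG per 100 bases, and the 5 with the best mouse match. The members, lists and rules were chosen with earlier results of these data known.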

Additional observations from a re-analysis of the deposited data

Results flagged for a closer look

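Among 86 groups of 4 values examined, 11 held a library far from the other 3 by Dixon's test, and chance flags about 1 in 20 groups. The family's summed CPM was 6030 in Standard-Low 1, against 7895 to 8244 in the other Standard-Low libraries. Contig 3724033 had 3.17 CPM in Standard-Low 1, against 5.88 to 6.17, and contig 1311686 had 24.5 CPM in Standard-Low 2, against 19.7 to 20.3.

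In Low-Low, contig 3954701 had 30.6 CPM in Low-Low 1, against 41.4 to 42.1 in the other 3 libraries. Contig 3906497 had 5.05 CPM in Low-Low 2, against 2.37 to 2.81, contig 3832161 had 0.52 CPM there, against 0.922 to 0.993, and contig 3174977 had 1.41 CPM there, against 1.52 to 1.54. The other 7 flags aside, 4 contigs had counts in 1 Low-Low library and none in the other 3, where any count, even 1, is flagged whatever its size. These were contig 2716599 at 0.306 CPM in Low-Low 1, contig 725913 at 0.0768 CPM in Low-Low 4, and contigs 147309 and 651015 at 0.0743 CPM each in Low-Low 2. No cause was tested for any of these.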

How the results depend on the processing

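The ratio of group means of summed CPM, 1.03, ran from 0.968 to 1.10 over the alternatives, and the median spread, 0.436, from 0.338 to 0.445. The count of 57 called members, 46 higher and 11 lower in Standard-Low, depended on the tool and on single libraries. It was 25 (25 and 0) with DESeq2, 16 (14 and 2) with limma voom and 40 (34 and 6) with edgeR's robust fit. With DESeq2, 204 of 3848 members had an unadjusted p under 0.05, a count not set against the table. Over members with a mean of at least 20 counts, 25 (18 and 7) were called. Only 25 of the 57 were measured there, and all 25 stayed called. The share of the table called is given for the main fit alone. The count of called members ran from 31 to 74 with 1 library left out, with 30 to 59 higher and 1 to 25 lower. The lowest total was without Low-Low 2, and the total was 35 (31 and 4) without Standard-Low 4. Settings added after seeing the data gave 26 (25 and 1) without Low-Low 2 and Low-Low 3 together and 77 (56 and 21) without both libraries numbered 1. Members called lower numbered 6 with a self-match of at least 70% and 7 with a shift of exactly 37. A replicate block gave 72 (55 and 17). Deviations of same-numbered libraries correlated at 0.013, 0.031, 0.026 and -0.009 over all contigs and at -0.003, 0.086, -0.085 and -0.085 over members. Unlike-numbered libraries of the 2 groups ran from -0.173 to 0.187 over members. A shift common to all members does not enter such a correlation, so it cannot decide whether the numbers pair libraries. The numbers were not taken as pairs, because the labels do not say so, although the family sum was low in both libraries numbered 1. The causes were not tested.

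Among named contigs past the threshold, 307 refits gave the same call and 74 lost it, none with a change of sign. Among those not past it, 26 refits changed sign. Leaving out 1 library, the log2 fold change ran from -0.0063 to 0.20 for contig 4028754, -0.15 to 0.072 for 1311686, -0.23 to 0.020 for 2630342, -0.25 to 0.061 for 1638033, -0.014 to 0.23 for 1916308, -0.26 to 0.0037 for 634625, -0.30 to 0.092 for 3013615, -0.11 to 0.19 for 3829779 and -0.14 to 0.20 for 4090366. Without Low-Low 2 and Low-Low 3 together it was 0.0052 for 1311686, 0.033 for 2630342, 0.16 for 1638033, -0.10 for 774604, -0.14 for 3829779 and -0.32 for 460818. It was 0.0080 for 1311686 at a mean of 20 counts and -0.091 for 3829779 without both libraries numbered 1.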
